A study of Mus musculus with 6 samples.

Results

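The genes described here are 10 marker genes of macrophages, measured in mouse pancreatic islets: Csf1r, Adgre1, Cd68, Lyz2, C1qa, C1qb, C1qc, Itgam, Mrc1 and Itgax. They form a list named by gene, and each was looked up among the 39470 loci to which reads had been counted. All 10 could be linked to a locus. Cd68 was left out because over 90% of its exonic bases were shared with another locus, so 9 genes were kept, and all 9 passed the filter on low counts among 23983 loci tested. The RNA was of islets from C57BL/6 mice, which are an inbred strain, killed at 14 weeks of age after 8 weeks on high fat or normal food. There were 3 libraries on the high fat diet and 3 on the normal diet, and the question was which transcripts differ with diet-induced obesity. The count columns name the high fat libraries by an abbreviation, HDR, that is not spelled out. Reading it as the high fat diet is an inference, and every direction below depends on it. Separate animals are not stated as the source of separate libraries, so each p-value reflects only how far these libraries scatter, and part of that scatter may be technical.

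Macrophages are phagocytic cells of the innate immune system, and a resident population lives inside the islet, close to the capillaries and the beta cells. These cells depend on the growth factor CSF1 acting through its receptor, the product of Csf1r, and in other studies islet inflammation in obesity has been tied to them. The other members cover what the cell shows on its surface (Adgre1, Itgam, Itgax and Mrc1), what it secretes (the C1q chains and lysozyme) and its lysosomes (Cd68).

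The members were minor transcripts of these libraries. Summed over the 9 kept genes they reached 167, 179 and 123 CPM (reads of a locus scaled to library size and TMM factor) in high fat libraries 1, 2 and 3, against 192, 186 and 200 CPM in normal diet libraries 1, 2 and 3. The 3 high fat sums lay below the 3 normal diet sums. High fat library 3 was the lowest of the 6. C1qa was the largest part of each sum, with 108, 116 and 56.1 CPM in high fat libraries and 116, 114 and 119 CPM in normal diet libraries. The low sum of library 3 thus rests on C1qa and is no measure of the other members. The libraries held 106332715 to 135353777 counted reads on the high fat diet and 104657337 to 133633996 on the normal diet. Iapp, which encodes a peptide secreted with insulin, stood at 53300 to 65000 CPM in high fat libraries and at 34800 to 36200 CPM in normal diet libraries, which fits the labelled tissue. Of 20 further macrophage genes that are not members, 17 were kept and tested, and their summed level ran from 121 to 148 CPM on the high fat diet and from 128 to 140 CPM on the normal diet. Ptprc, which encodes the leukocyte antigen CD45, had 7.21, 8.06 and 11 CPM in high fat libraries and 9.45, 7.80 and 9.39 CPM in normal diet libraries. Markers of neutrophils, which share Lyz2 and Itgam with macrophages, summed to 0.053 to 0.177 CPM on the high fat diet and 0.0547 to 0.140 CPM on the normal diet, and markers of mast cells to 0.00883 to 0.104 CPM on the high fat diet and 0 to 0.014 CPM on the normal diet. In whole islets, fewer cells of a type and less RNA per cell cannot be told apart.

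By edgeR's quasi-likelihood test, adjusted over all loci tested, 1 of the 9 members (Csf1r) was lower on the high fat diet and 0 were higher. Among all 23983 loci 4.86% were called lower and 5.95% higher. At an unadjusted p under 0.05 the count was also 1 lower and 0 higher, against 16.4% and 15.4% of all loci. DESeq2 likewise called 1 member lower and 0 higher, against 7.85% and 11.8% of 21069 loci. 1 call among 9 members is a larger share than the 4.86% and 7.85% of all loci called lower, but it rests on 1 gene. For higher calls, and at the unadjusted threshold, the members' share was under that of all loci. The fitted log2 fold change, high fat over normal diet, was below 0 for 9 of 9 members, with a median of -0.26, while 54.5% of all loci tested were below 0 and their median was -0.05. Loci with a mean of at least 1 CPM, of which there were 14821, had a median of 0.075. For 2 members, Csf1r and Lyz2, all high fat libraries were below all normal diet libraries, as they were for 20.4% of all loci tested.

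**Figure D1:**
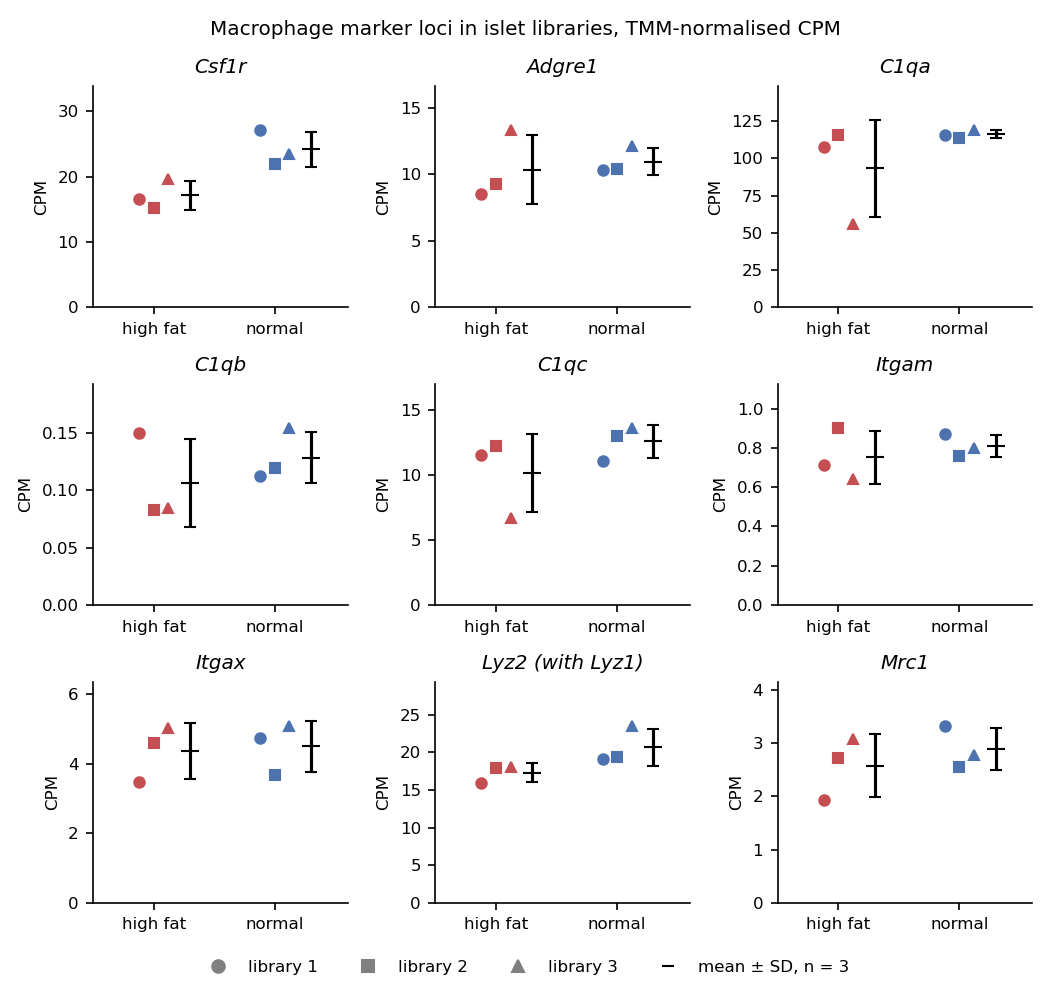
Level of the 9 kept members in each library, in TMM-normalised CPM on axes that start at 0. Symbols mark libraries 1, 2 and 3 of each diet, and bars give the mean ± SD of 3 libraries; Csf1r and Lyz2 show no overlap between the diets, while C1qa and C1qc have 1 high fat library (library 3) well under the other 5.

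1 high fat library, library 3, differed from its own group, and this touches several members. On the second principal component it lay at -27.9, against 17.8 and 18 for high fat libraries 1 and 2 and -8.89 to 1.71 for the normal diet libraries. The chi-square per degree of freedom over loci was 159 and 142 between this library and high fat libraries 1 and 2, and 38.6 between those libraries. Its deviation followed base composition. Among 11580 coding genes the median log2 difference of library 3 from the mean of high fat libraries 1 and 2 was 0.23 where coding transcripts had under 40% GC, -0.05 between 50% and 55%, -0.43 between 55% and 60%, and -0.86 from 60% upward. Spearman's rho between GC content and that difference was -0.68 across genes, which share the libraries and are not independent replicates. Values without this library, and values after a per-library correction for GC content, are therefore given beside the members they change. The correction was chosen after this pattern had been seen.

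Csf1r encodes the receptor tyrosine kinase for CSF1 and interleukin 34 and is the growth factor receptor on which macrophage survival depends. Its locus had 16.6, 15.2 and 19.6 CPM in high fat libraries 1, 2 and 3, against 27.1, 22.0 and 23.4 CPM in normal diet libraries 1, 2 and 3. Every high fat library was below every normal diet library, with library 3 the nearest to them. The means were 17.1 ± 2.26 CPM on the high fat diet and 24.2 ± 2.63 CPM on the normal diet (SD, n = 3 each), a change of -29.1%, and the log2 fold change was -0.50 (SE 0.13, edgeR adjusted p = 0.046). Without high fat library 3 it was -0.60 (edgeR adjusted p = 0.0077), in a fit that called 7.87% of 24893 loci lower. The call sat at the edge of the threshold. It was lost in 11 of 18 alternative analyses, with edgeR or limma adjusted p-values up to 0.20, and among them in every fit that left out 1 of the other 5 libraries. Among the 18, counts summed per gene and reads recovered from scaled values gave the main fit again and could not lose the call. With any 1 normal diet library left out no locus at all was called, so the call could not be kept there. Both limits hold for the counts out of 18 given for other genes below.

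The Csf1r locus extends far beyond the annotated gene, and the counts are not split by exon. It spans chr18:61265226-61334222 on the plus strand of mm9 and holds 48939 exonic bases, but only 5510 of them (11.3%) lie in exons of UCSC known genes. An assembled last exon of 44265 bases begins at 61289958 and runs to 61334222, past the known gene end at 61290793 and through the neighbouring gene Hmgxb3, which is transcribed from the opposite strand. Of the exonic bases of the Csf1r locus, 34073 (69.6%) lie in introns of Hmgxb3 and 9219 (18.8%) in its exons. The Hmgxb3 locus itself, with 95.1% of its exonic bases shared, was left with 0 to 116 counts per library. Reads from Csf1r and reads from unspliced Hmgxb3 RNA cannot be told apart in these counts, and RNA was sequenced without poly(A) selection. Whether the difference with diet belongs to the receptor's own exons was not tested.

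**Figure D2:**
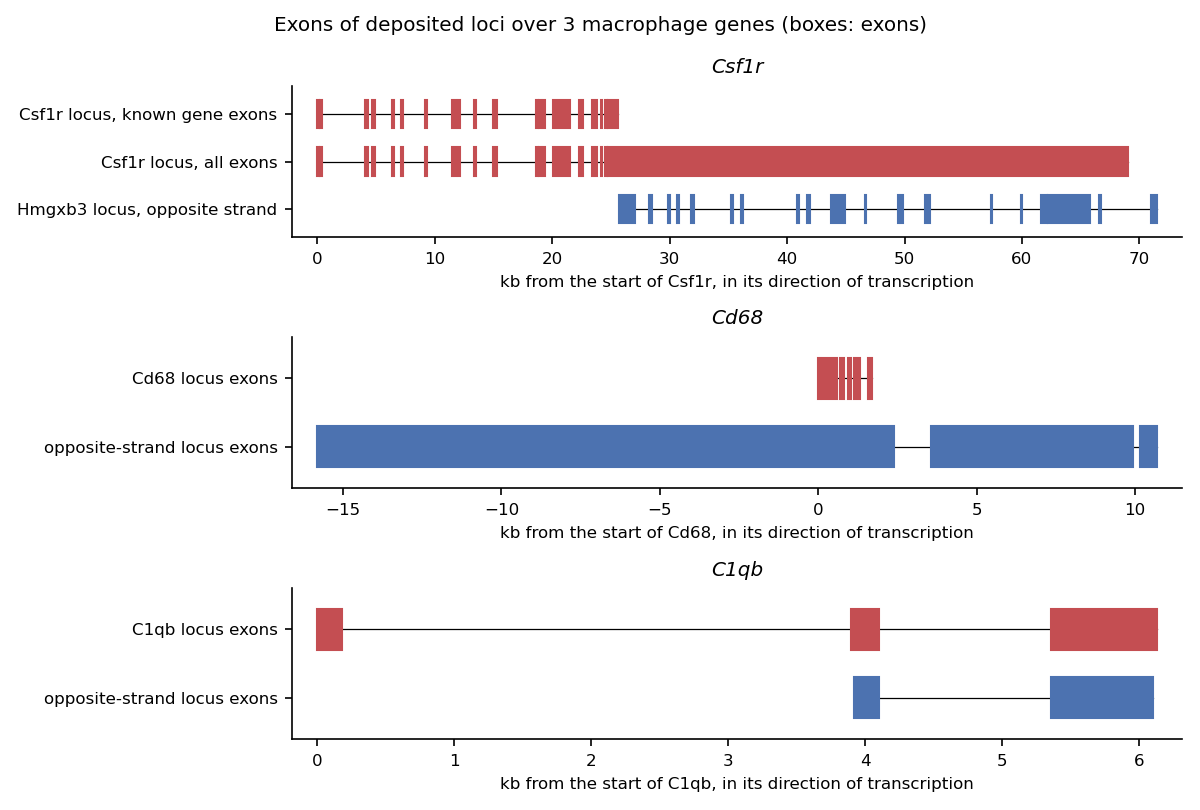
Exons of the deposited loci over Csf1r, Cd68 and C1qb, in kb from the start of each gene, with the member's locus in red and the locus on the opposite strand in blue (boxes are exons, drawn to scale). The last exon of the Csf1r locus, 44265 bases long, covers most of Hmgxb3, an exon of 18220 bases covers all of Cd68, and 919 of 1156 exonic bases of C1qb are covered.

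The same overlap of strands decides what can be said of Cd68 and C1qb. Of loci whose exonic bases were all covered by loci of the opposite strand, 547 of 547 had 0 counts in every library, as did 16.6% of 33111 loci that shared no base. Reads in bases shared between strands were thus not counted, although the library kit marks strand. Cd68 encodes a heavily glycosylated membrane protein of lysosomes and endosomes that is a standard stain for macrophages. Its locus (chr11:69477873-69479564, minus strand, mm9) lies wholly within an exon of 18220 bases on the plus strand, and it had 0 counts in all 6 libraries, so no statement about Cd68 is possible. The covering locus held 2130 to 4567 counts.

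C1qa, C1qb and C1qc encode the A, B and C chains of C1q, the recognition molecule of the classical complement pathway, which is built from all 3 chains and is made largely by macrophages rather than by the liver. The genes lie side by side on the minus strand of chromosome 4 of mm9, C1qb at 136436013 to 136442139, C1qc at 136445717 to 136448829 and C1qa at 136451831 to 136454759. RefSeq promoter sequence is described for 7 of the 10 members, and those of Csf1r, Adgre1 and C1qa are left out. C1qb and C1qc are among the 7. Both are shown because these genes encode chains of 1 complex and C1qa and C1qc had nearly the same profile over the libraries. Each line below gives the 250 bases before the annotated start on the gene's own strand in build GRCm38.p6, at chr4:136886201-136886450 for C1qb and at chr4:136892915-136893164 for C1qc. Capitals mark GAGGAA or its reverse complement TTCCTC, the core of the motif bound by PU.1, the transcription factor that specifies macrophages. In C1qc the capitals extend over the longer form GAGGAAGT read on the reverse strand, which includes the core.
C1qb: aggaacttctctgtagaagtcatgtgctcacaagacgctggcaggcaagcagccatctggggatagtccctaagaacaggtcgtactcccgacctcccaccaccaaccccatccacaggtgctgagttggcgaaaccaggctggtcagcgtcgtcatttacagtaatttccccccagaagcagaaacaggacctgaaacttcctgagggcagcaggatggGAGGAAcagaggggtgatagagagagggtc
C1qc: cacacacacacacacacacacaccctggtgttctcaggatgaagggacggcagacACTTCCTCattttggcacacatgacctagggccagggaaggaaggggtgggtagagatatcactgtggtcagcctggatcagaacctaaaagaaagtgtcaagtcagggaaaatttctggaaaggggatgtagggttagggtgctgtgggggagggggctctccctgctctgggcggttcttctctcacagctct
The core, searched on both strands, was in 23.3% of 32851 RefSeq promoter windows of the same length and the longer form in 2.44%. The core was found 1 time in C1qb, C1qc and Cd68, 2 times in Itgam and 3 times in Mrc1, and it was not found in Itgax and Lyz2. The longer form was found in C1qc alone of these 7. A match is a description of the letters and not evidence of a binding site.

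C1qa had the highest level of the members. It stood at 108, 116 and 56.1 CPM in high fat libraries 1, 2 and 3, against 116, 114 and 119 CPM in normal diet libraries. High fat library 2 lay within the normal diet range, library 1 was below it, and library 3 had less than any other. The means were 93.4 ± 32.6 CPM on the high fat diet and 116 ± 2.38 CPM on the normal diet (SD, n = 3 each), and the fitted log2 difference of -0.31 did not pass the test (SE 0.23, adjusted p = 0.37 by edgeR). C1qc had 11.5, 12.2 and 6.72 CPM in high fat libraries and 11.1, 13.0 and 13.6 CPM in normal diet libraries. Here too library 3 was alone below the rest, and the diets overlapped. Its log2 fold change was also -0.31 (SE 0.21, edgeR adjusted p = 0.35).

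Without library 3 the log2 fold changes of C1qa and C1qc were -0.045 and -0.078, close to 0. Coding transcripts of C1qa, C1qb and C1qc had 59.5%, 57.4% and 57.5% GC, the highest of the members, and library 3 was lower than the mean of high fat libraries 1 and 2 by -1.0 for C1qa and -0.82 for C1qc on the log2 scale. These values ranked at percentiles 4.2 and 7.0 of coding genes of at least 1 CPM. After the correction for GC content C1qa stood at 98.2, 106 and 82.7 CPM in high fat libraries and 115, 101 and 109 CPM in normal diet libraries, so that library 3 was closer to the others, and the log2 fold change was -0.18. For C1qc it was -0.23.

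The A and C chains were next compared as a ratio within each library. There were 9.34, 9.53 and 8.35 C1qa reads per C1qc read in high fat libraries and 10.4, 8.77 and 8.70 in normal diet libraries, and library 3 did not stand apart in it. The ratio of C1qa to Adgre1 was 12.7, 12.6 and 4.23 in high fat libraries and 11.2, 11 and 9.77 in normal diet libraries. In this ratio library 3 was far below the other 5, while high fat libraries 1 and 2 were above all 3 normal diet libraries. None of the 11 ratios computed between members, or between a member and Ptprc, passed a two-sided exact permutation test between the diets (adjusted p = 1 for each, the smallest unadjusted p possible with 3 against 3 libraries being 0.1).

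C1qb could be counted only in part. Of its 1156 exonic bases 919 were shared with a locus on the opposite strand that itself had a count of 0, and 237 were left. Most of the bases left lay in its first exon, which was not covered. The B chain gene had 17, 8 and 11 reads in high fat libraries and 14, 13 and 22 reads in normal diet libraries, which is 0.150, 0.0828 and 0.0848 CPM on the high fat diet against 0.112, 0.119 and 0.154 CPM on the normal diet. The diets overlapped, and the log2 fold change of -0.28 did not pass the test (SE 0.37, edgeR adjusted p = 0.64). Counts this small leave wide error, and the gap of C1qb to its sister genes is no measure of the B chain.

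**Figure D3:**
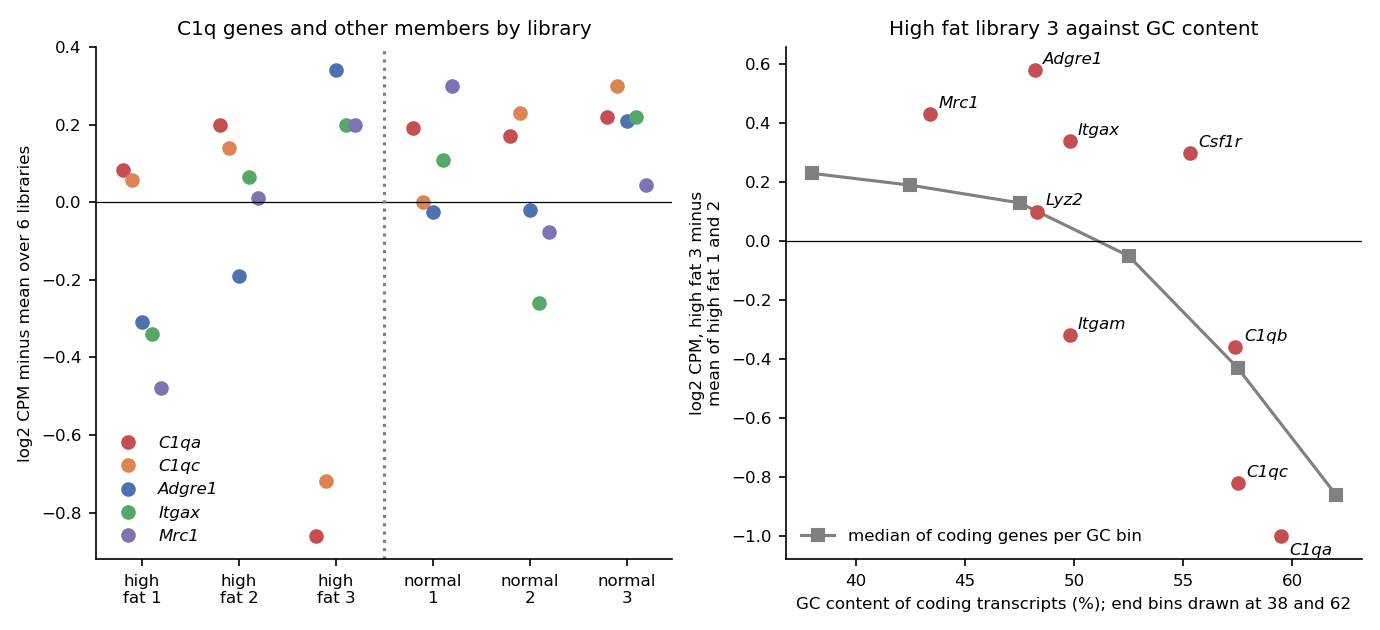
Left, log2 CPM of 5 members in each library, centred on each gene's mean over the 6 libraries: C1qa and C1qc are at -0.86 and -0.72 in high fat library 3, where Adgre1, Itgax and Mrc1 are at 0.34, 0.20 and 0.20. Right, the log2 difference of high fat library 3 from the mean of high fat libraries 1 and 2 against the GC content of coding transcripts (GENCODE M21), for the 9 kept members in red and as the median of coding genes per GC bin in grey, from 0.23 under 40% GC to -0.86 from 60%. Csf1r is drawn at the GC content of its annotated transcripts, although only 11.3% of the exonic bases of its locus lie in known exons.

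Lyz2 encodes lysozyme M, an enzyme that cleaves bacterial cell walls and is made by macrophages and neutrophils. Its locus (chr10:116714387-116730048, minus strand, mm9) also holds Lyz1, the neighbouring lysozyme gene made mainly by Paneth cells of the intestine, because assembled transcripts join exons of both. The genes are near copies of each other. Their second exons, of 165 bases each, are shown as an example of this likeness. They are from GENCODE M21 transcripts on build GRCm38, at chr10:117280641-117280805 for Lyz2 and chr10:117291029-117291193 for Lyz1, both on the minus strand and written along it, with the bases that differ in capitals.
Lyz2: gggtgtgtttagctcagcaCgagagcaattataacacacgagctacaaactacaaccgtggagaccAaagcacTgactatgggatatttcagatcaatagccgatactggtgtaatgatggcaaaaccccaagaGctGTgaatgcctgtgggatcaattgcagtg
Lyz1: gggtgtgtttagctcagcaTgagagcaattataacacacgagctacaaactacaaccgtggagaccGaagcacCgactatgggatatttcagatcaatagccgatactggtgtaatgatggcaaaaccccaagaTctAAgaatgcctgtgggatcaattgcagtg
They differ at 6 bases and are 96.4% identical. The counts belong to the pair because the locus holds both genes. The lysozyme locus had 15.9, 17.9 and 18.1 CPM in high fat libraries 1, 2 and 3, against 19.1, 19.3 and 23.5 CPM in normal diet libraries. All high fat libraries were below all normal diet libraries, by a narrow margin. The means were 17.3 ± 1.17 CPM on the high fat diet and 20.7 ± 2.46 CPM on the normal diet (SD, n = 3 each), and the log2 fold change of -0.26 did not pass the test (SE 0.12, edgeR adjusted p = 0.17). With the correction for GC content, fitted on 13686 coding loci of which 4.73% were called lower and 3.73% higher, the lysozyme locus did pass, at -0.42 (edgeR adjusted p = 0.038), and Csf1r did not, at -0.51 (edgeR adjusted p = 0.09). For Csf1r the correction used 55.3% GC, the value of its annotated coding transcripts. Only 11.3% of the exonic bases of its locus lie in known exons, so the corrected value cannot decide on Csf1r. The corrected levels of the lysozyme locus were 15.7, 17.2 and 16.2 CPM in high fat libraries and 20.6, 20.3 and 24.6 CPM in normal diet libraries. Over the other settings its adjusted p ran up to 0.59.

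Adgre1 encodes F4/80, the adhesion G protein-coupled receptor whose antibody is the classical label of mouse macrophages. Its locus (chr17:57498109-57622952, plus strand, mm9) shared no base with another and lay wholly in known exons. Adgre1 had 8.48, 9.23 and 13.3 CPM in high fat libraries, against 10.3, 10.4 and 12.1 CPM in normal diet libraries. High fat library 3 was the highest of the 6 and the other high fat libraries were the lowest. The means were 10.3 ± 2.58 CPM on the high fat diet and 10.9 ± 1.04 CPM on the normal diet (SD, n = 3 each), and the log2 fold change was -0.084 (SE 0.18, edgeR adjusted p = 0.78). Without library 3 it was -0.30 and with the GC correction -0.25, neither of which passed the test. Set against the leukocyte gene Ptprc, there were 1.18, 1.15 and 1.20 Adgre1 reads per Ptprc read in high fat libraries and 1.09, 1.33 and 1.29 in normal diet libraries, with overlap. Csf1r reads per Adgre1 read were 1.96, 1.65 and 1.48 in high fat libraries and 2.63, 2.12 and 1.93 in normal diet libraries. The diets overlapped by 1 high fat library in this ratio, and the log2 difference of -0.39 had an exact permutation p of 0.2 (adjusted p = 1).

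The integrin genes Itgam and Itgax encode the alpha chains CD11b and CD11c, which pair with the beta chain CD18 into the complement receptors CR3 and CR4. They are neighbours on the plus strand of chromosome 7 of mm9, Itgam at 135206154 to 135271674 and Itgax at 135273082 to 135294171. Itgax had 3.47, 4.59 and 5.04 CPM in high fat libraries and 4.74, 3.67 and 5.09 CPM in normal diet libraries, with nearly the same range on both diets (edgeR log2 fold change -0.043, SE 0.19, with adjusted p = 0.90). Itgam had 0.715, 0.901 and 0.640 CPM in high fat libraries and 0.872, 0.757 and 0.799 CPM in normal diet libraries (edgeR log2 fold change -0.11, SE 0.20, with adjusted p = 0.74). Its normal diet values lay inside the high fat range. CD11c was thus the more abundant of these alpha chain transcripts on both diets, at 1.01 CPM per kb of exon on the high fat diet and 1.04 on the normal diet, against 0.12 and 0.129 CPM per kb for Itgam.

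Mrc1 encodes CD206, the macrophage mannose receptor, which takes up mannose-bearing glycoproteins and is often used as a sign of alternative activation. Its locus is at chr2:14151041-14253650 on the plus strand of mm9. Mrc1 had 1.93, 2.71 and 3.08 CPM in high fat libraries, against 3.32, 2.55 and 2.78 CPM in normal diet libraries. High fat library 1 was the lowest and the other libraries overlapped, and the log2 fold change was -0.16 (SE 0.20, edgeR adjusted p = 0.61). The ratio of Itgax to Mrc1 reads, which sets CD11c against CD206, was 1.80, 1.69 and 1.64 in high fat libraries and 1.43, 1.44 and 1.83 in normal diet libraries, again with overlap. Adgre1, Mrc1 and Itgax all ran higher in library 3 than in the mean of high fat libraries 1 and 2, by 0.58, 0.43 and 0.34 on the log2 scale, at percentiles 98.6, 96.4 and 92.7 of coding genes, and their coding transcripts had 48.2%, 43.4% and 49.8% GC. Library 3 therefore split the members, with C1qa, C1qb, C1qc and Itgam below the mean of high fat libraries 1 and 2 and Csf1r, Adgre1, Lyz2, Mrc1 and Itgax above it. For C1qb library 1 carried that mean, since libraries 2 and 3 were nearly equal. Itgam had the same 49.8% GC as Itgax, but its difference was -0.32. Csf1r, with 55.3% GC in its annotated transcripts, was at 0.3.

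Set in order by level per kb of exon, C1qa came first, at 49.6 to 103 CPM per kb in high fat libraries and 101 to 105 in normal diet libraries. C1qc followed at 6.38 to 11.6 CPM per kb on the high fat diet and 10.5 to 12.9 on the normal diet, then the lysozyme pair at 5.98 to 6.81 on the high fat diet and 7.19 to 8.84 on the normal diet, with ranges that overlapped between these neighbours. Adgre1 came next at 2.61 to 4.10 CPM per kb on the high fat diet and 3.17 to 3.73 on the normal diet, followed by Itgax at 0.805 to 1.17 on the high fat diet and 0.851 to 1.18 on the normal diet. The range of Mrc1 overlapped that of Csf1r, and that of Itgam overlapped that of C1qb, the last in the order. For Csf1r the length used is that of the whole assembled locus, and for C1qb it includes bases in which reads were not counted, so their places in this order are uncertain. By mean level over this length the order was the same on both diets. Over unshared bases alone Csf1r was at 0.43 CPM per kb on the high fat diet and 0.609 on the normal diet. Mrc1 was at 0.483 and 0.542, so the places of Csf1r and Mrc1 then differed between the diets. C1qb was at 0.447 and 0.54 over unshared bases and was then not last.

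The list called CSF1 receptor axis held 8 further genes, of which only Csf1 and Il34 encode ligands of that receptor. The others belong to other growth factors and their receptors, so the list is no measure of CSF1 receptor signalling. Of the 7 genes that were tested 2, Csf1 and Csf2ra, were lower on the high fat diet and 0 higher. The list's median log2 fold change was -0.53, against -0.05 over all loci. Csf1, which encodes the main ligand of the receptor, had 7.76, 8.08 and 9.32 CPM in high fat libraries and 11.3, 12.3 and 12.8 CPM in normal diet libraries. The diets did not overlap, and the log2 fold change was -0.53 (SE 0.12, edgeR adjusted p = 0.035). Csf2ra, which encodes the alpha chain of the GM-CSF receptor, had 15.7, 12.8 and 8.44 CPM in high fat libraries and 19.9, 25.2 and 19.7 CPM in normal diet libraries, and edgeR gave a log2 difference of -0.81 (SE 0.21, adjusted p = 0.046). High fat library 3 was again the lowest, and without it the log2 fold change was -0.59. The other ligand gene, Il34, did not pass the test at -0.29 (SE 0.18, edgeR adjusted p = 0.30), and 56.1% of its exonic bases were shared. Kit and Flt3, which encode related receptors of stem and progenitor cells, had log2 fold changes of -0.59 and -1.07 and did not pass (edgeR adjusted p = 0.091 and 0.084). Csf2rb and Csf3r were at -0.18 and 0.031, and Csf2 had 2 reads in 1 high fat library and 0 in the other 5. Without high fat library 3 the count for the list was 4 lower and 0 higher, and with the GC correction 3 lower and 0 higher. The calls of Csf1 and Csf2ra were lost in 8 and 7 of 18 alternative analyses. Among these were cyclic loess with limma (adjusted p = 0.063 and 0.062) and each fit that left out 1 of the other 5 libraries, where the edgeR adjusted p was 0.089 to 0.11 for Csf1 and 0.055 to 0.15 for Csf2ra.

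Of 17 core macrophage genes tested outside the members, 0 were lower and 0 higher by edgeR, and 0 by DESeq2. The list's median log2 fold change was -0.037. At an unadjusted p under 0.05 there were 2, both lower: Spi1, which encodes PU.1, at -0.61 (SE 0.25, edgeR adjusted p = 0.13), and Irf8, which encodes a transcription factor of the same lineage, at -0.33 (SE 0.14, edgeR adjusted p = 0.14). Spi1 had 0.539, 0.590 and 0.455 CPM in high fat libraries and 0.576, 0.857 and 0.968 CPM in normal diet libraries, with overlap. Ctss, the gene of the lysosomal protease cathepsin S, was the most abundant of the list and had 45.8, 44.9 and 57.5 CPM in high fat libraries against 51.8, 46.5 and 52.1 CPM in normal diet libraries (log2 fold change -0.02). Cx3cr1, the fractalkine receptor gene, had 4.64, 7.26 and 8.99 CPM in high fat libraries and 8.51, 8.65 and 9.09 CPM in normal diet libraries (log2 fold change -0.33, edgeR adjusted p = 0.32). Cybb, which encodes the catalytic subunit of the phagocyte oxidase, was at -0.037 and Tyrobp, which encodes the signalling adaptor DAP12, at -0.14.

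**Figure D4:**
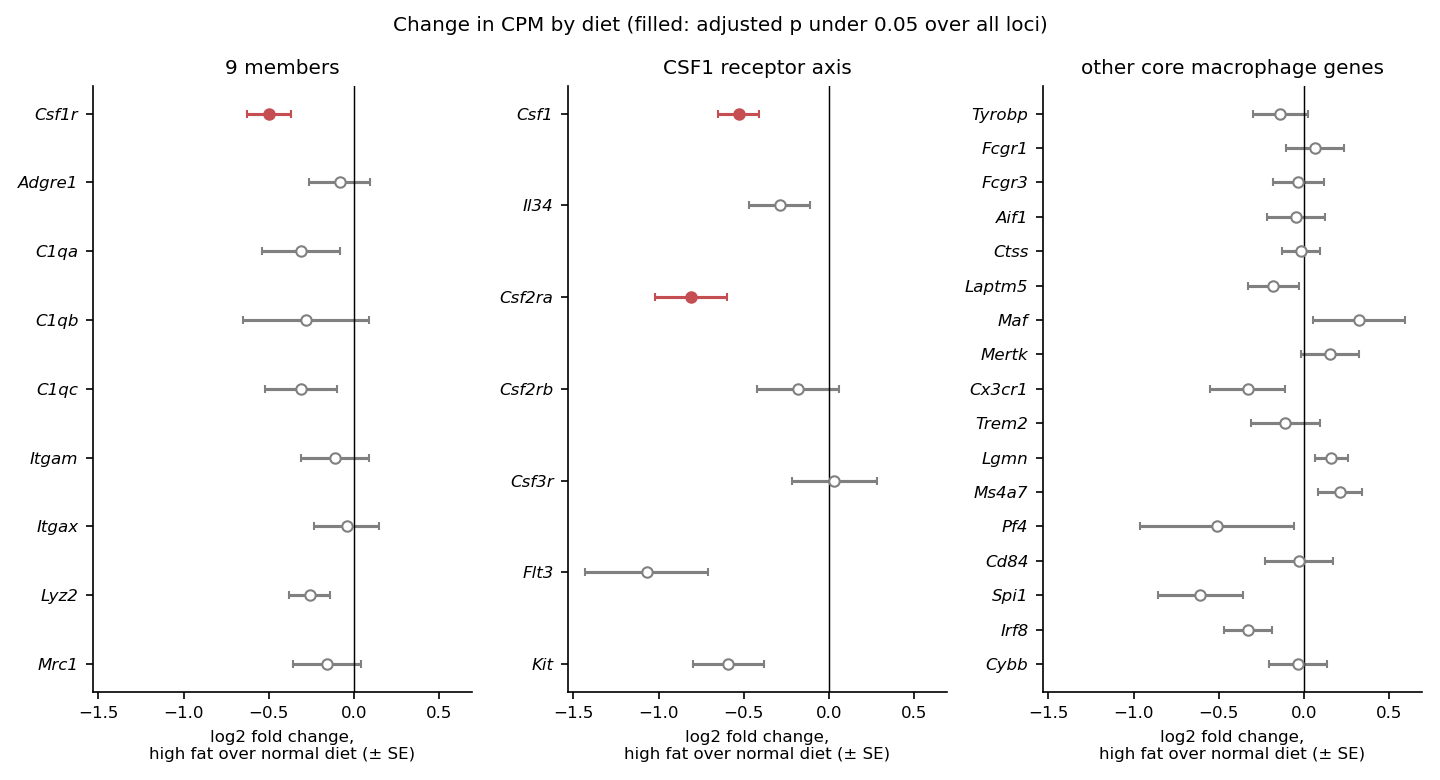
Log2 fold change, high fat over normal diet, with its SE, for the 9 kept members, the 7 tested genes of the CSF1 receptor axis and 17 further macrophage genes (filled points have an adjusted p under 0.05 over all loci). Csf1r at -0.50, Csf1 at -0.53 and Csf2ra at -0.81 are filled, and no gene in the right panel is.

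Genes of resident and lipid-associated macrophages gave 1 lower and 0 higher of 11 tested. The gene that was lower, Lpl, encodes lipoprotein lipase, which beta cells also make. It had 123, 102 and 139 CPM in high fat libraries and 171, 179 and 234 CPM in normal diet libraries, without overlap (edgeR log2 fold change -0.68, SE 0.15, with adjusted p = 0.031). Apoe, which encodes the lipid carrier apolipoprotein E, had 82.0, 96.4 and 55 CPM in high fat libraries and 98.9, 126 and 112 CPM in normal diet libraries and did not pass (edgeR log2 fold change -0.53, SE 0.19, with adjusted p = 0.094). Spp1, which encodes osteopontin, was at 0.35 (edgeR adjusted p = 0.12).

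Complement genes outside C1q gave 1 higher and 1 lower of 18 tested. Cd59a, which encodes a cell surface inhibitor of the membrane attack complex and is made by many cell types, had 93.0, 91.5 and 104 CPM in high fat libraries and 67.8, 64.9 and 68.2 CPM in normal diet libraries (edgeR log2 fold change 0.52, SE 0.082, with adjusted p = 0.019). Masp2, the gene of a protease of the lectin pathway, was lower at -0.68 (SE 0.17, edgeR adjusted p = 0.043), but only 22.1% of its exonic bases were in known exons and 41.4% were shared. The partners of C1q in the C1 complex were not called: C1ra was at -0.33 (edgeR adjusted p = 0.31), and the C1s1 locus also held C1s2 and was left out. C3, the central component, had 14.8, 23.6 and 17.9 CPM in high fat libraries and 16.3, 13.5 and 13.5 CPM in normal diet libraries (log2 fold change 0.38, edgeR adjusted p = 0.17).

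Of 6 leukocyte integrin genes tested 1 was lower and 0 higher. Itgad, which lies beside Itgax and encodes the alpha chain CD11d of the same CD18 family, had 3.44, 4.92 and 5.26 CPM in high fat libraries and 8.58, 8.21 and 8.84 CPM in normal diet libraries. The diets were well apart (edgeR log2 fold change -0.91, SE 0.17, with adjusted p = 0.025), unlike those of its neighbours Itgam and Itgax. Whether Itgad and Itgax differ in their response was not tested. Itgb2, the gene of CD18 itself, had 1.76, 2.09 and 2.04 CPM in high fat libraries and 2.00, 1.88 and 2.87 CPM in normal diet libraries (log2 fold change -0.20, edgeR adjusted p = 0.52).

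The lists nearest in function to Cd68 and Mrc1 had calls in the higher direction only. Of all loci edgeR called 5.95% higher and DESeq2 11.8%. Of 14 tested genes of the lysosome, 2 were higher and 0 lower by edgeR and 5 higher by DESeq2, with a median log2 fold change of 0.26, and 14 of 14 values were above 0. Ctsl, which encodes cathepsin L, had 349, 390 and 379 CPM in high fat libraries and 274, 268 and 298 CPM in normal diet libraries (edgeR log2 fold change 0.41, SE 0.081, with adjusted p = 0.027), and Cd63, which encodes a lysosomal tetraspanin, was at 0.37 (SE 0.086, edgeR adjusted p = 0.035). With the GC correction both calls were lost, Ctsl at 0.23 and Cd63 at 0.24 (edgeR adjusted p = 0.063 and 0.064), and by cyclic loess with limma their log2 fold changes were 0.17 and 0.21. Of 18 alternative analyses 9 lost the call of Ctsl and 11 that of Cd63. The lysosome genes are not markers of macrophages alone, and their summed level of 5080 to 5580 CPM on the high fat diet and 4150 to 4870 CPM on the normal diet was far above that of the macrophage genes. Which islet cells these reads came from was not tested. Of 13 phagocytic and scavenger receptor genes 1 was higher and 0 lower. It was Cd36, the fatty acid and oxidised lipoprotein receptor, with 22.0, 29.7 and 31.7 CPM in high fat libraries and 15.4, 14.5 and 13.8 CPM in normal diet libraries (edgeR log2 fold change 0.93, SE 0.14, with adjusted p = 0.019). In this receptor list 1 gene was higher and 2 were lower at an unadjusted edgeR p under 0.05. Its median log2 fold change was 0.026, with 5 of 13 values below 0. Cd36 is also a gene of capillary endothelium and fat cells. Fabp4, another gene of those cells, had 17.5, 30.1 and 23.6 CPM in high fat libraries and 9.80, 9.33 and 9.14 CPM in normal diet libraries, with an edgeR log2 difference of 1.33 (SE 0.18, adjusted p = 0.015), and it was 1 of 2 adipocyte markers tested, while Plin1 and Lep were at 0 in all libraries. The summed level of the adipocyte list was 17.6 to 30.2 CPM on the high fat diet and 9.22 to 9.91 CPM on the normal diet. Nearly all of this sum was Fabp4, and the log2 fold change of the other adipocyte marker tested was below 0. The part of fat cells in the Cd36 result was not tested.

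Genes of macrophage activation gave 1 call. Of 10 inflammatory genes tested 0 were higher and 0 lower by edgeR, and 0 of the 8 to which DESeq2 gave an adjusted p, and at an unadjusted p under 0.05 there were 0 higher and 2 lower. Il1b, which encodes interleukin 1 beta, had 1.35, 1.29 and 2.14 CPM in high fat libraries and 1.66, 2.16 and 2.31 CPM in normal diet libraries (log2 fold change -0.35, edgeR adjusted p = 0.33). Tnf had 0.0618, 0.0828 and 0.108 CPM in high fat libraries and 0.176, 0.137 and 0.210 CPM in normal diet libraries and did not pass (edgeR log2 fold change -1.04, SE 0.36, with adjusted p = 0.088). Of 8 alternative activation genes 1 was higher and 0 lower. It was Mmp12, the gene of macrophage elastase, with 3.51, 4.01 and 5.70 CPM in high fat libraries and 2.95, 2.38 and 1.77 CPM in normal diet libraries (edgeR log2 fold change 0.90, SE 0.24, with adjusted p = 0.048). The call of Mmp12 was lost in 10 of 18 alternative analyses, with log2 fold changes of 0.67 to 1.07 over all 18 and an edgeR or limma adjusted p of up to 0.14. They included the GC correction (0.70, edgeR adjusted p = 0.081), upper quartile factors, cyclic loess, a 1 CPM minimum and each fit that left out 1 library other than high fat library 3. Arg1, which encodes arginase 1, was at -0.024 (SE 0.14, edgeR adjusted p = 0.92).

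Of 13 chemokine and chemokine receptor genes tested 0 passed in either direction by edgeR, and 0 of 10 with an adjusted p by DESeq2, with 0 higher and 2 lower at an unadjusted p under 0.05, and 12 of 13 values were below 0. Without high fat library 3 edgeR called 1 lower. Ccr2, the receptor gene of inflammatory monocytes, had 2.68, 4.33 and 4.95 CPM in high fat libraries and 5.47, 4.24 and 5.10 CPM in normal diet libraries (log2 fold change -0.31, edgeR adjusted p = 0.38). Of 7 MHC class II genes 0 passed by edgeR, and 0 of 6 by DESeq2, with 0 higher and 3 lower at an unadjusted p under 0.05, and 7 values were below 0. Without high fat library 3 edgeR called 2 lower. The most abundant, Cd74, which encodes the invariant chain, had 75.1, 76.2 and 75.7 CPM in high fat libraries and 88.7, 88.0 and 93.9 CPM in normal diet libraries, without overlap (edgeR log2 fold change -0.25, SE 0.074, with adjusted p = 0.058). Of 6 genes common to leukocytes 0 passed by edgeR or DESeq2, also at an unadjusted p under 0.05, with a median of 0.061, and Ptprc was at -0.018 (SE 0.18, edgeR adjusted p = 0.96). Of 7 monocyte and dendritic cell genes 0 passed by edgeR, and 0 of 6 by DESeq2, with 1 higher and 0 lower at an unadjusted p under 0.05 and 2 lower without high fat library 3.

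**Figure D5:**
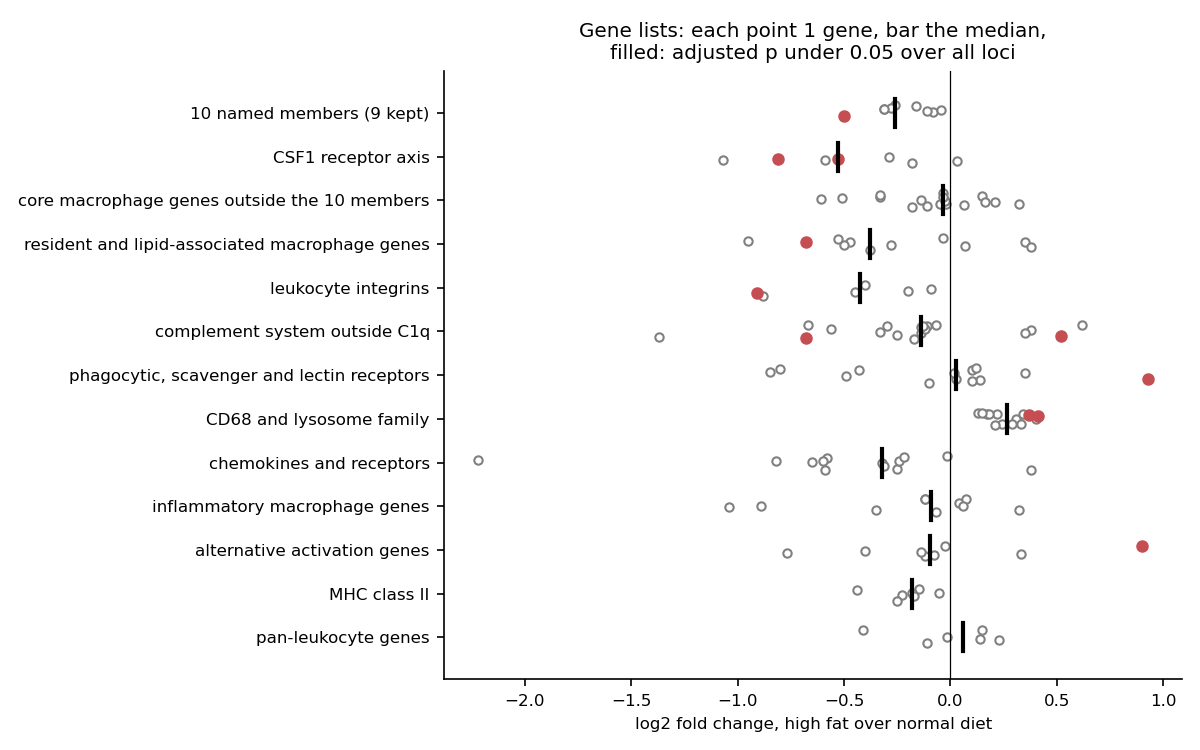
Log2 fold change, high fat over normal diet, of the 9 kept members and of the tested genes of 12 lists, with 1 point per gene and a bar at the median (filled points have an adjusted p under 0.05 over all loci; vertical jitter has no meaning). Medians run from -0.53 for the list called CSF1 receptor axis to 0.26 for the lysosome genes, with -0.26 for the members and -0.037 for further macrophage genes. The list at -0.53 also holds genes of other growth factors and their receptors.

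Some markers of other cell types were also called, where 4.86% of all loci were called lower and 5.95% higher. Of 6 Schwann cell genes 3 were lower and 0 higher, and their summed level was 15.1 to 20.6 CPM in high fat libraries and 22.6 to 24.1 CPM in normal diet libraries. Of 9 acinar genes 1 was higher and 0 lower by edgeR, and 4 higher by DESeq2, with a summed level of 3850 to 8270 CPM on the high fat diet and 2610 to 5070 CPM on the normal diet. Of 9 stromal and pericyte genes 2 were higher, Rgs5 and Acta2, and 0 lower, but the other 7 values were below 0, the list's median log2 fold change was -0.53, and 2 genes were lower at an unadjusted p under 0.05. Of 8 endothelial genes 0 passed by edgeR or DESeq2, with 1 higher at an unadjusted p under 0.05. Of 4 T cell and NK cell genes 1 was lower, Thy1, which nerve and stromal cells also make. Of 3 B cell genes and 4 duct genes 0 passed by edgeR, and 0 of 2 and 0 of 4 by DESeq2, with 1 B cell gene lower and 0 duct genes at an unadjusted p under 0.05. Of 8 genes of beta and alpha cells 3 were higher and 1 lower. Of 18 alternative analyses 4 lost the calls of Rgs5 and G6pc2, 5 those of Try5 and Iapp and 6 those of Ngfr and Acta2. The call of Irx2 was lost in 7, that of Thy1 in 8 and that of Pcsk1 in 10. Of 17 analyses 6 lost the call of Sox10 and 7 that of Gfap. With the replicate block 0 Schwann cell genes were called, while 5 acinar genes were higher. The part of these cell types in the results for the members was not tested.

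The loci whose pattern over the 6 libraries lay nearest to that of Csf1r were, out of 12074 compared, Gm4673, Rassf5, Adgrv1, Ypel1 and Prkab2, at a root mean square difference of 0.022, 0.048, 0.054, 0.057 and 0.060 of centred log2 CPM. They were chosen for this likeness, so their own difference with diet is a description: Adgrv1 had 15.0, 12.6 and 18.2 CPM in high fat libraries and 25.2, 19.9 and 21.2 CPM in normal diet libraries. The share of exonic bases in known exons was 19.4% for Rassf5, 13.0% for Ypel1 and 60.4% for Prkab2, against 11.3% for Csf1r and 100% and 99.2% for Gm4673 and Adgrv1. The loci nearest to the mean of the 9 members were Plekhh1, Cd74, Ypel2, Nfam1 and Psmb8, at 0.032, 0.047, 0.049, 0.050 and 0.054. That mean was -0.14, -0.052 and -0.18 in high fat libraries and 0.13, 0.024 and 0.22 in normal diet libraries, in log2 units around 0. The diets did not overlap in it, and the gap between high fat library 2 and normal diet library 2 was small.

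The number of calls over all loci depended on single libraries. With normal diet library 1, 2 or 3 left out, edgeR called 0 of 24558, 24925 and 24580 loci and the smallest adjusted p was 0.087, 0.055 and 0.083, although at an unadjusted p under 0.05 the higher loci alone numbered 2522, 2569 and 2630. In those fits the log2 fold change of Csf1r was -0.43, -0.58 and -0.54. With high fat library 1 left out 94 loci were higher and 34 lower, with library 2 left out 57 and 29, and with library 3 left out 3075 and 1960. In this last fit, further lists with more calls than above were the lysosome genes (7 higher), complement (3 higher and 2 lower) and the resident and lipid-associated genes (2 lower). The other calls of single genes in the macrophage lists were lost in 6 of 18 alternative analyses for Lpl and Itgad, in 8 for Cd59a and Masp2 and in 5 for Cd36. With the GC correction Cd59a was at 0.32 and kept its call, and 3 resident and lipid-associated genes were lower.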

How the data were processed

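The members, the lists and the tests were chosen with earlier results of these data known. Total RNA was depleted of ribosomal RNA and made into stranded libraries without poly(A) selection, per the labels' protocols. The submitters' processing notes name mm9 as the genome build, HTSeq 0.5.4p3, Cufflinks 2.1.1, TopHat2 2.0.8 and edgeR, without settings. Raw counts of reads for 39470 loci were deposited by the authors, with 98161 assembled transcripts in mm9. The authors also deposited a signal table of scaled values, each the count times 1 constant per library (0.906 to 1.1), from which 100% of values came out as whole reads within 0.001, equal to the raw counts. The edgeR test on those recovered reads made the same 1426 higher and 1165 lower calls.

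Loci carry no gene names in the deposited transcripts. A locus was linked to a GENCODE M21 gene (GRCm38) on the same chromosome and strand by matching chains of exon and intron lengths, each read in its own build, and no coordinate was converted. This linked 19912 loci. Of 247 genes in 24 further lists, 242 were linked and 227 kept. Left out were 2 with over 90% of exonic bases shared and 13 whose locus also held another named gene, a rule set after values were seen. Lyz2 was kept although its locus holds Lyz1.

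Counts were fitted in R 4.3.3 with edgeR 4.0.16 (filterByExpr, TMM, quasi-likelihood test, two-sided, Benjamini-Hochberg over 23983 loci, threshold 0.05), checked on simulated counts. CPM used TMM-scaled library sizes. The SE was taken as the size of a log2 fold change divided by the root of its F statistic, and the common dispersion was 0.0287. Alternatives used DESeq2 1.42.0, limma 3.58.1 and other scalings, filters and sets of libraries. The GC correction, added after the data were seen, used as an offset each library's median deviation, over coding genes of at least 1 CPM, in 20 bins of GC content. DESeq2 gives no adjusted p to some low loci, which are left out of its counts. Named are all members, up to 4 called and up to 3 most abundant genes per list, any gene of the CSF1 receptor axis, complement and core macrophage lists, and the 5 loci nearest in pattern to Csf1r and to the members' mean. Itgb2, Tnf, Plin1 and Lep lie outside this rule and were named after their values were seen.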

Additional observations from a re-analysis of the deposited data

How the results depend on the processing

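The call of Csf1r was lost in 11 of 18 alternatives. No member was called lower (0) with DESeq2's size factors, upper quartile factors, cyclic loess with limma, limma on the scaled values or the replicate block, and between 0 and 1 when single libraries were left out, the 1 being Csf1r without high fat library 3. With the GC correction the 1 member called lower was Lyz2 and not Csf1r, for which the GC content used was that of annotated transcripts and not of the whole locus. The log2 fold change of Csf1r kept its sign throughout, at -0.60 to -0.41. Loci called higher and lower numbered 249 and 232 by cyclic loess, 54 and 20 with the replicate block, 511 and 647 with the GC correction, and 0 to 3075 and 0 to 1960 with 1 library left out. Upper quartile factors called 562 higher, a 1 CPM minimum 755, limma on scaled values 399 and DESeq2 2476, and the exact test called 2074 lower. With the replicate block 0 genes were called in the CSF1 receptor axis, resident, complement, integrin, scavenger receptor, lysosome and alternative activation lists. Whether replicate numbers pair the libraries is not stated. Same-numbered libraries had correlations of deviations of -0.144, 0.0974 and -0.0651, and so few values cannot decide it. The members' median was -0.11 by cyclic loess. Signs turned by cyclic loess for C1qb (0.14), Itgam (0.13) and Itgax (0.042), and by DESeq2 for Itgax (0.0022). With single libraries left out Adgre1 ran from -0.30 to 0.047, Mrc1 from -0.31 to 0.016 and Itgax from -0.19 to 0.11, while C1qa, C1qb, C1qc, Lyz2 and Itgam stayed below 0. C1qb and Itgam drop out at a 1 CPM minimum, and DESeq2 gives no adjusted p for C1qb. Summing loci per gene changed nothing because each member has 1 locus. The cause of these shifts was not tested. Depth was lowest for C1qb, at 8 to 22 reads per library, with an SE of 0.37. Leaving out a library leaves 2 in its group, and the fit takes their spread from all loci.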
